A study of Mus musculus with 5 samples.

Results

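The genes described here encode the subunits of RNA polymerases I, II and III and of Mediator. They were the protein-coding genes on autosomes of the mm9 mouse genome whose symbols begin with Polr1, Polr2 or Polr3, or with Med followed by a digit. The rule found 56 gene models of 55 symbols among 21418 autosomal protein-coding genes, because Med20 is annotated as 2 models. They comprised 5 genes of Pol I, 12 of Pol II, 10 of Pol III and 29 of Mediator. Med12 and Med14 lie on chromosome X and were left out. The study profiled H3K4me3 and Cxxc1 by chromatin immunoprecipitation and sequencing (ChIP-seq) in CD4+CD8+ (DP) thymocytes from mice 3 to 4 weeks old. WT mice carried Cxxc1 fl/fl alleles without Cre, and Cxxc1-deficient mice carried Cxxc1 fl/fl with hCD2-Cre, a transgene under the human CD2 promoter that is active in lymphoid cells from before the DP stage. The samples titled KO carry Cxxc1+/- as their genotype label, but the methods state that floxed exons were deleted in them, and the titles were followed. Of the 5 libraries, 3 were used, with 1 library in each group: H3K4me3 in WT cells, H3K4me3 in Cxxc1-deficient cells, and Cxxc1, whose file names no genotype and which the study's methods place in WT cells. No difference between genotypes could therefore be tested. Intervals on tag numbers cover counting error only, and those on shares and medians treat genes as independent draws. None covers variation between mice or libraries.

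Pol I transcribes ribosomal RNA, Pol II messenger RNA, and Pol III transfer RNA, 5S RNA and other short RNAs. Mediator is a large complex of head, middle, tail and kinase modules that carries signals from enhancer-bound factors to Pol II. H3K4me3, trimethylation of lysine 4 of histone H3, is laid down mainly around the start sites of active genes, most of all where the DNA is rich in CpG. Cxxc1 is the CXXC zinc finger subunit of the Setd1 H3K4 methyltransferase complex and binds unmethylated CpG. Genes for these machines are used by nearly every cell and mostly have CpG-rich promoters.

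The deposited lists held 200-bp windows inside called regions, each with a value in reads per 1 M mapped reads (RPM). A window outside a called region has no value, so a gene without a listed window has an unknown signal rather than a signal of 0. WT H3K4me3 had 99316 windows in 14237 peaks, Cxxc1-deficient H3K4me3 had 18403 windows in 2979 peaks, and Cxxc1 had 20038 windows in 4352 peaks. From the steps in the RPM values, 1 tag was worth 0.1056 to 0.11 RPM, which gave the 3 libraries 9.09 to 9.47 M mapped tags. Among markers, 5 of 8 DP thymocyte genes had listed WT promoter windows. The exceptions were Cd4, Rag1 and Rag2. Of markers of other cells, Cd79b (0.4 RPM) and Klf1 (0.9 RPM) were listed among 4 B cell, 4 myeloid, 2 erythroid and 3 thymic epithelium genes.

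Promoter sequences of some members, chosen by name, are given as examples of CpG content in listed and unlisted promoters. The stretches below are the 200 bases before the 5′ end of each gene on the mm9 assembly, written 5′ to 3′ on the strand of the gene, with each CG in capitals. Polr1d, a small assembly subunit shared by Pol I and Pol III, and Polr2a, the largest subunit of Pol II, were listed for WT H3K4me3. Polr1b, a catalytic subunit of Pol I, and Med13, a kinase module subunit, were in none of the 3 lists at their promoters.
Polr1d, chr5:147888426-147888625, plus strand: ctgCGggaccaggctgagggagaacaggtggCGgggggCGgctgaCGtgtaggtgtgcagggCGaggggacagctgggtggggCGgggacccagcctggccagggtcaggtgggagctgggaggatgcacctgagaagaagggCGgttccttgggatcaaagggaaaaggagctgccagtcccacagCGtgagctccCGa
Polr2a, chr11:69572140-69572339, minus strand: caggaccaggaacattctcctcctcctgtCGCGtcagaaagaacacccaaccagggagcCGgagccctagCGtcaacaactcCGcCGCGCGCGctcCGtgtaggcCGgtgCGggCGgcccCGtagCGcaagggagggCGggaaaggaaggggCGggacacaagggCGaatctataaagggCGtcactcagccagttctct
Polr1b, chr2:128926531-128926730, plus strand: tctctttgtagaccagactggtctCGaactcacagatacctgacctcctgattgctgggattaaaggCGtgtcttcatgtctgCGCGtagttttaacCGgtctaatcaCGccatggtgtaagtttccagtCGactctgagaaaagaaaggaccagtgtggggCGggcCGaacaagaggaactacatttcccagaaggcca
Med13, chr11:86171105-86171304, minus strand: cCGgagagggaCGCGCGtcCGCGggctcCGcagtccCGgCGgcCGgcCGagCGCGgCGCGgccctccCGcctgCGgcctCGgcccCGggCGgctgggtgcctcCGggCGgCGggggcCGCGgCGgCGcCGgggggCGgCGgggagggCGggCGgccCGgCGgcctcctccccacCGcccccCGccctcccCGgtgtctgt
CG reads the same on both strands, and 90.5% of the corresponding stretches of all autosomal genes held at least 1. Polr1d and Polr1b had 9 each, a count reached or passed by 46.4% of all genes. Polr2a had 19 (17.3% of all genes had as many). Med13 had 37, a number matched by 0.635% of all genes, and still had no listed window. Over the members, the median count was 16 in listed genes (quartiles 13 to 19) and 12 in unlisted genes (8 to 17).

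In WT cells, H3K4me3 windows lay within 1 kb of the transcription start (TSS) in 26 of the 56 genes, or 46.4% (95% Wilson interval 34.0 to 59.3%). The share over all autosomal genes was 32.5%. Proteasome subunit genes, at 20 of 41 (48.8%, 34.3 to 63.5%), and mitochondrial ribosomal protein genes, at 36 of 77 (46.8%, 36.0 to 57.8%), had shares close to that of the polymerase and Mediator genes, with intervals that overlapped widely. The polymerases were listed at 16 of 27 genes (59.3%, 40.7 to 75.5%) and Mediator at 10 of 29 (34.5%, 19.9 to 52.7%). These intervals overlapped, and Mediator was near the share of all genes.

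Listed promoters of the members were of ordinary strength. The summed promoter value ranged from 1.5 to 3.7 RPM with a median of 2.45 RPM, beside a median of 2.4 RPM over all 6954 listed autosomal promoters. Their peaks, formed by joining windows, had a median width of 1600 bp, which is also the median over all listed promoters. The highest values were those of Polr2i, a small zinc-binding Pol II subunit (3.7 RPM), Med22 of the head module (3.6 RPM), Polr1d (3.5 RPM), the shorter Med20 model, also of the head (3.5 RPM), and Med21 of the middle module (3.4 RPM). The lowest were those of Polr2j, which belongs to the assembly platform of Pol II (1.5 RPM), Polr2d, a stalk subunit (1.6 RPM), Med12l, a kinase module paralogue of Med12 (1.6 RPM), Med10 of the middle module (1.8 RPM), and Polr2h and Med30 (1.9 RPM each). The counting interval of Polr2i was 2.76 to 5.4 RPM from 37 tags, and that of Polr2j was 0.889 to 2.62 RPM from 15 tags. These were picked as the highest and lowest of 26 values, and the intervals do not allow for that choice. They therefore do not show that the promoters differ. Neighbours in the order could not be separated either, since each interval spanned more than 1 RPM.

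**Figure D1:**
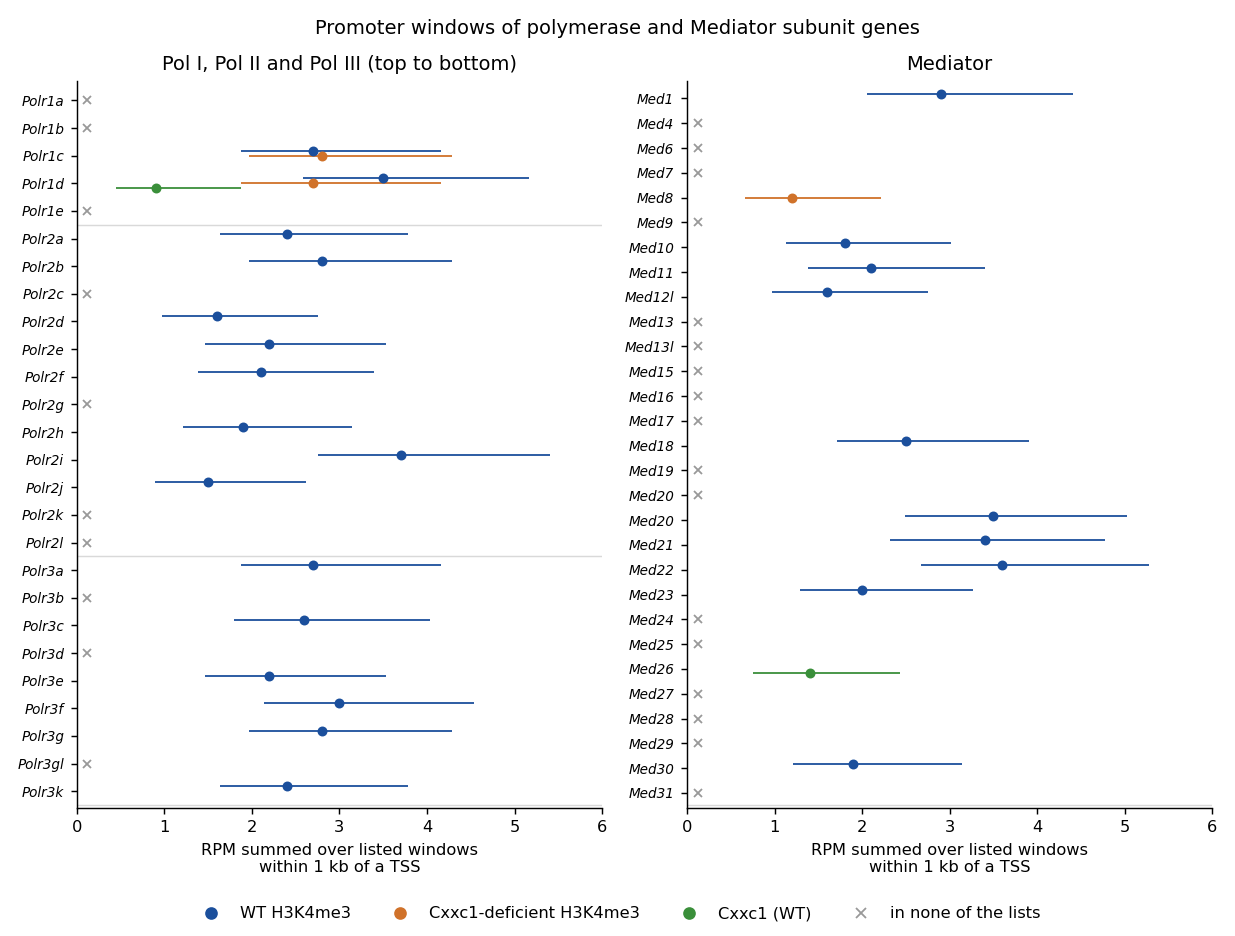
Promoter values of the gene models, with RPM summed over the listed windows within 1 kb of a TSS on the horizontal axis and 1 row per gene, Pol I to Pol III at left and Mediator at right. Points are single libraries (blue WT H3K4me3, orange Cxxc1-deficient H3K4me3, green Cxxc1), bars are 95% Poisson counting intervals, and grey crosses mark genes in none of the lists (1 such gene is not drawn); orange points appear only at Polr1c, Polr1d and Med8.

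Among Pol I genes, the catalytic subunits Polr1a and Polr1b and the peripheral subunit Polr1e had no listed promoter window in either genotype. The listed genes were Polr1c and Polr1d, which encode the assembly heterodimer that Pol I shares with Pol III. In Pol II, both catalytic subunits were listed, Polr2a at 2.4 RPM and Polr2b at 2.8 RPM. So were Polr2d, Polr2i and Polr2j, and 3 of the 5 subunits common to all polymerases, Polr2e (2.2 RPM), Polr2f (2.1 RPM) and Polr2h (1.9 RPM). The common subunits Polr2k and Polr2l were not listed, nor were Polr2c, the assembly partner of Polr2j, and Polr2g, the stalk partner of Polr2d. Among Pol III genes, the largest subunit Polr3a was listed at 2.7 RPM, whereas Polr3b, the other catalytic subunit, was not. Polr3c (2.6 RPM) and Polr3f (3.0 RPM), of the initiation subcomplex, were listed. Polr3g (2.8 RPM) was listed but its paralogue Polr3gl was not. Polr3e (2.2 RPM) and Polr3k (2.4 RPM) were also listed, whereas Polr3d was not.

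In Mediator, 4 of 8 head gene models were listed: Med11 (2.1 RPM), Med18 (2.5 RPM), the shorter Med20 and Med22. Med6, Med8, Med17 and the longer Med20 model were not. The protein-coding start of the longer Med20 model lies inside that gene, so its peak at the common 5′ end counted for the shorter model. In the middle module, 3 of 9 were listed. Med1 (2.9 RPM), the subunit through which nuclear receptors bind, joined Med10 and Med21, while Med4, Med7, Med9, Med19, Med26 and Med31 were not listed. Of 5 tail genes, Med23 was listed (2.0 RPM) and Med15, Med16, Med24 and Med25 were not. Of the kinase module, Med12l was listed and Med13 and Med13l were not. Of the 4 subunits that have been placed in the head or the tail, Med30 was listed and Med27, Med28 and Med29 were not. Every module and every polymerase had both listed and unlisted subunits.

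**Figure D2:**
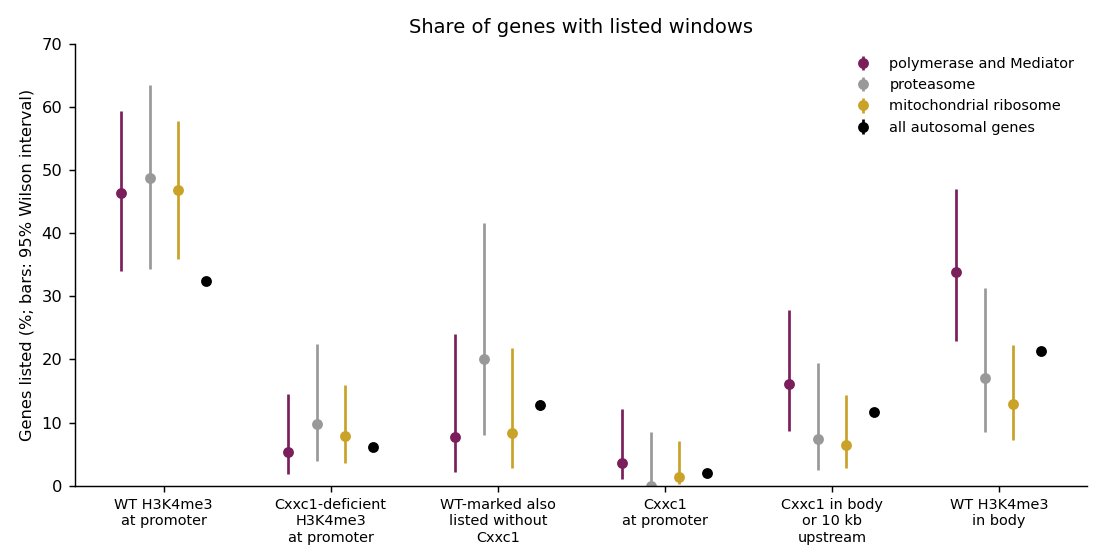
Percentage of genes with listed windows (vertical axis, 95% Wilson intervals) for 6 measures, with 1 point per gene set: polymerase and Mediator genes, proteasome genes, mitochondrial ribosomal protein genes and all autosomal genes. At WT promoters the 3 gene sets lie between 46.4% and 48.8% and all genes at 32.5%; for Cxxc1-deficient H3K4me3 the intervals of all 3 sets include the value of all genes.

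CpG content was read within 500 bp of each 5′ end as the ratio of observed to expected CpG. The median was 0.74 over the 56 gene models and 0.56 over all autosomal genes. Of the members, 51 had a ratio of 0.6 or more (91.1%, against 46.5% of all genes), and within this class 26 of 51 were listed in WT cells (51.0%, 37.7 to 64.1%). Of all 9951 genes of the class, 53.1% were listed, so within CpG-rich promoters the members had nearly the share of other genes. The members under the ratio of 0.6 were Med24, Polr1b, Polr1e, Polr2g and Polr3gl. None of these 5 was listed (0.0%, up to 43.4%), beside 14.6% of all 11467 genes of that class. Listed and unlisted members had similar median ratios, 0.73 and 0.76. Over all genes the median ratios were 0.75 for listed and 0.36 for unlisted promoters. Other measures were higher in listed members, with overlapping quartiles. The median CG count within 500 bp was 63 in listed members (quartiles 54 to 78) and 54 in unlisted members (46 to 67). Median GC was 59.9% and 55.0%. Over all genes the CG counts were 67 and 22, and GC was 60.3% and 51.4%. These differences were not tested.

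**Figure D3:**
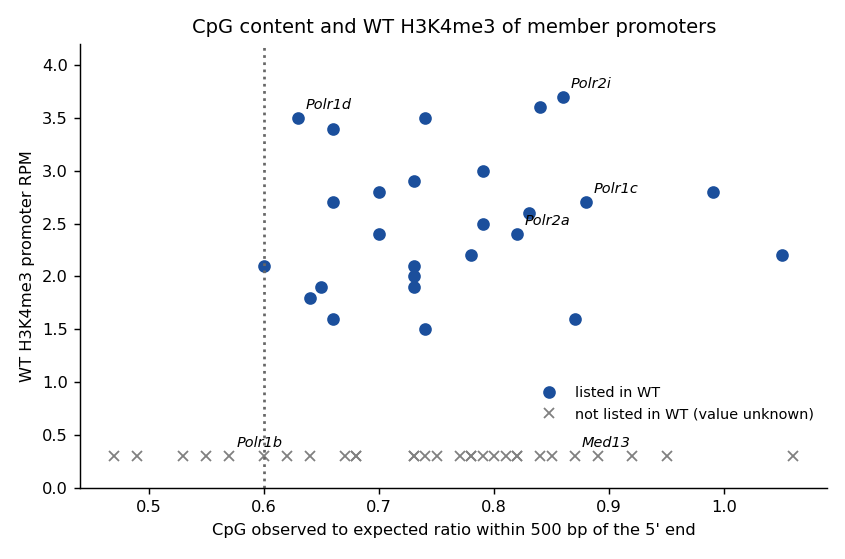
WT H3K4me3 promoter RPM of each gene model (vertical axis) against the observed to expected CpG ratio within 500 bp of the 5′ end (horizontal axis). Blue points are listed genes, grey crosses are genes without a listed window, drawn at an arbitrary height because their value is unknown, and the dotted line is the ratio of 0.6, below which no member was listed.

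In Cxxc1-deficient cells, promoter windows were listed at 3 of the 56 gene models, Polr1c, Polr1d and Med8 (5.36%, 1.84 to 14.6%). The share over all autosomal genes was 6.11%. Of the 26 promoters listed in WT cells, 2 were also listed in Cxxc1-deficient cells (7.69%, 2.14 to 24.1%), beside 12.8% of all listed promoters and 11.7% of the 5680 whose WT value lay in the range of the members. By set, the promoters listed in both genotypes were 2 of 16 for the polymerases and 0 of 10 for Mediator, 4 of 20 for the proteasome and 3 of 36 for the mitochondrial ribosome. Of the 30 members without WT windows, 1 was listed in Cxxc1-deficient cells (3.33%, 0.591 to 16.7%), beside 2.9% of such promoters genome-wide. The members' shares were thus near those of all genes, with intervals that include the values of all genes.

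Polr1c (chromosome 17, 46380869 to 46385003, minus strand) had 2.7 RPM from 27 tags over 6 listed windows in WT cells and 2.8 RPM from 28 tags over 9 listed windows in Cxxc1-deficient cells. These sums cover regions called separately in each library. In the 4 windows listed in both, the values were 1.7 and 0.9 RPM, WT first, a ratio of 1.89 (counting interval 0.796 to 4.81). Polr1d (chromosome 5, 147888626 to 147922937, plus strand) had 3.5 RPM from 35 tags over 9 listed windows in WT cells and 2.7 RPM from 27 tags over 8 listed windows in Cxxc1-deficient cells. In its 7 shared windows the values were 2.8 and 2.4 RPM, a ratio of 1.17 (0.652 to 2.1). These ratios describe 1 library against 1 library in windows that had to be called in both, and were not tested. Med8 (chromosome 4, 118081942 to 118088387, plus strand), a head module subunit, had 1.2 RPM at its promoter in Cxxc1-deficient cells and no listed window in WT cells. Its peak ran from 259 to 1658 bp downstream of the 5′ end and summed to 1.8 RPM.

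The symbol rule misses 3 Pol I subunits that this annotation carries under older symbols, Twistnb (Polr1f), Cd3eap (Polr1g) and Znrd1 (Polr1h). They were looked up after the values of the others were seen. None was listed in WT cells, whereas Cd3eap (1.2 RPM) and Znrd1 (1.7 RPM) were listed in Cxxc1-deficient cells. With them, Pol I had 2 of 8 promoters listed in WT cells and 4 of 8 in Cxxc1-deficient cells. The shares over all autosomal genes were 32.5% and 6.11%. These are counts over 8 genes in 1 library per genotype, with 3 genes added afterwards, and were not tested. Cd3eap has Ppp1r13l and Znrd1 has Znrd1as starting within 1 kb.

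Partners were called divergent by opposite strand and distance alone, without a check that the pair runs apart. Such a partner TSS lay within 1 kb at 15 of the 56 gene models (26.8%). The share with such a partner was 11.5% over all autosomal genes, 19.5% for the proteasome and 35.1% for the mitochondrial ribosome. The 15 included all 3 whose promoters were listed in Cxxc1-deficient cells. Over all autosomal genes, 242 of the 889 promoters listed in both genotypes had such a partner. The share among all promoters listed in Cxxc1-deficient cells is not given, so the count of 3 cannot be compared with it. The partner was Yipf3 at Polr1c and Lnx2 at Polr1d. Of the 15 genes, 10 were listed in WT cells (66.7%, 41.7 to 84.8%), and 16 of the 40 without any partner (40.0%, 26.3 to 55.4%). Over all genes the shares were 61.0% and 28.8%. Listed in both genotypes were 2 of the 10 (5.67 to 51.0%) and 0 of the 16 (0.0%, up to 19.4%), beside 16.1% and 11.8% over all genes. In such a region a window cannot be assigned to either gene, so whether the H3K4me3 in Cxxc1-deficient cells belonged to Polr1c, Polr1d and Med8 or to their partners cannot be told apart.

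The peaks with a divergent partner had a median upstream edge at -966 bp (95% interval of the median -1388 to -566 bp) a median downstream edge at 648 bp from the 5′ end, with a median promoter value of 2.9 RPM over 10 genes. Without a partner the edges were at -364 bp (-612 to -241 bp) and 899 bp, and the median value was 2.15 RPM over 16 genes. Over all genes, the edges were at -774 and 743 bp with a divergent partner and at -507 and 966 bp without. At Polr1d the WT peak ran from -1825 to 974 bp and the Cxxc1-deficient peak from -1825 to 774 bp. At Polr1c the Cxxc1-deficient peak, from -1597 to 1002 bp, was wider than the WT peak, from -1197 to 602 bp. Among peaks without a partner, Med12l reached from -1699 to 100 bp and so lay mostly upstream, while Med10 (41 to 840 bp), Med30 (1 to 1400 bp) and Med11 (-20 to 1579 bp) lay on the gene. The broadest was that of Polr3a, at 3600 bp, and the narrowest that of Polr2j, at 600 bp.

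**Figure D4:**
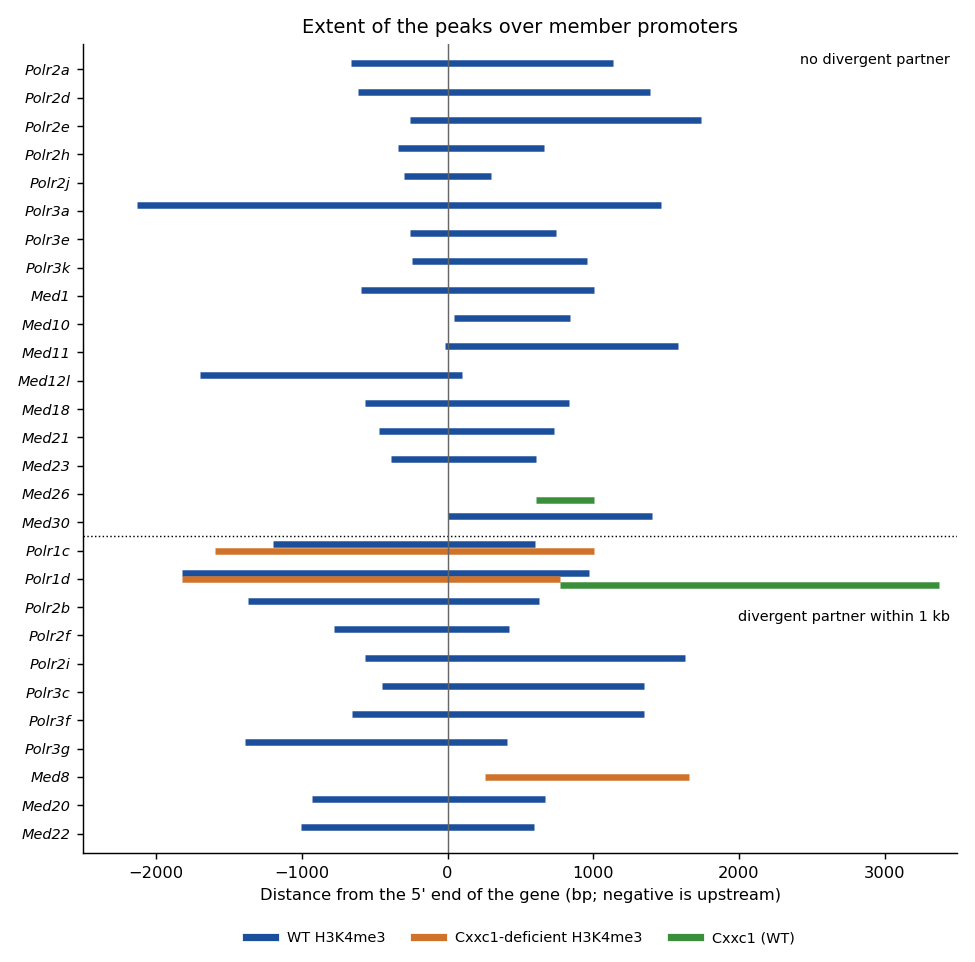
Extent of each promoter peak in bp from the 5′ end of the gene (horizontal axis, negative is upstream), 1 row per gene with a listed promoter, genes without a divergent partner above the dotted line and those with one below. Blue bars are WT H3K4me3, orange Cxxc1-deficient H3K4me3 and green Cxxc1; at Polr1d the green bar begins where the orange bar ends.

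Cxxc1 windows were listed at the promoters of 2 of the 56 gene models, Polr1d and Med26 (3.57%, 0.985 to 12.1%), beside 2.03% of all autosomal genes. In the gene body or the 10 kb upstream, 9 genes had Cxxc1 windows (16.1%, 8.69 to 27.8%), beside 11.6% of all genes, 7.32% of proteasome genes and 6.49% of mitochondrial ribosomal protein genes. The intervals overlapped. Median gene length was 14.1 kb for the members, 11.8 and 7.65 kb for these sets and 15.5 kb for all genes, and its part in the shares was not tested. The 9 genes had 11 Cxxc1 peaks, of which 7 had their midpoint in an intron, 1 overlapped a WT H3K4me3 peak (9.09%), and 0 overlapped a Cxxc1-deficient H3K4me3 peak. Of the 2750 Cxxc1 peaks placed in the same way at all autosomal genes, 8.18% and 1.56% did so.

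The strongest windows of 3 of these peaks are given because they span the range of CG counts among the 11 member peaks. They are written on the strand of the gene, 5′ to 3′, with each CG in capitals.
Med26, chr8:75071401-75071600, minus strand: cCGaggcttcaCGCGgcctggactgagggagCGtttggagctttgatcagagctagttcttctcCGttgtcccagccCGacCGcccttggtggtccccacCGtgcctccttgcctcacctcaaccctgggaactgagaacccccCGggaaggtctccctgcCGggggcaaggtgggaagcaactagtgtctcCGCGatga
Polr1d, chr5:147891601-147891800, plus strand: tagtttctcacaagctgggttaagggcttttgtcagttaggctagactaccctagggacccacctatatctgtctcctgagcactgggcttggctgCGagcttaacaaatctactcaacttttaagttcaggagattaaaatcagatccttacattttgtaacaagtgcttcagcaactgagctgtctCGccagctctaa
Med12l, chr3:58957601-58957800, plus strand: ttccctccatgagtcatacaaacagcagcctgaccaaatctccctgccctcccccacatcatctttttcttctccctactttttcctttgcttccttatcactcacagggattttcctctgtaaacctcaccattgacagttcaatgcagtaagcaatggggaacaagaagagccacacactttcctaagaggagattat
The window of Med26 (0.9 RPM) had 12 CG, a count reached or passed by 2.86% of the strongest windows of all 4330 autosomal Cxxc1 peaks. That of Polr1d (1.2 RPM) had 2, the median of all peaks, and that of Med12l (0.7 RPM) had 0. At least 1 CG was present in 84.1% of these windows genome-wide. The other member windows held 1 to 3. All 11 windows held fewer CG than the 200 bases before the 5′ end of the median member, which held 14. This is not particular to the members, since only 2.86% of the strongest windows of all autosomal Cxxc1 peaks held 12 or more.

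At Polr1d, Cxxc1 lay directly downstream of H3K4me3. Its larger peak ran from 775 to 3374 bp after the 5′ end, with 3.7 RPM from 36 tags, the most of any Cxxc1 peak at a member. It overlapped the last 200 bp of the WT H3K4me3 peak and began at the base after the Cxxc1-deficient peak ended. A further Cxxc1 peak of 1.8 RPM lay from 4575 to 5974 bp. At Med26, a middle module subunit that links Mediator to elongation factors, the Cxxc1 peak lay from 609 to 1008 bp with 1.4 RPM from 13 tags. No H3K4me3 window was listed at that promoter, and the nearest WT peak was 37800 bp away.

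The other Cxxc1 peaks were distal. Med12l had 2.2 RPM at 146.9 kb from its 5′ end, Med27 had 1.8 RPM at 53.16 kb and 1.7 RPM at 160.76 kb, and Med13l had 1.5 RPM at 186.67 kb. Polr1a had 1.3 RPM at 65.55 kb, 2200 bp from a WT H3K4me3 peak of 1.6 RPM in the same gene. Polr3e had 1.6 RPM at 22.44 kb. The Cxxc1 peaks of Polr2e (2.3 RPM, centred at -10.36 kb) and Polr3a (1.4 RPM, centred at -7.23 kb) lay before these genes. Of these 7 genes, Med12l, Polr2e, Polr3a and Polr3e had WT H3K4me3 at their promoters and none had it there in Cxxc1-deficient cells.

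**Figure D5:**
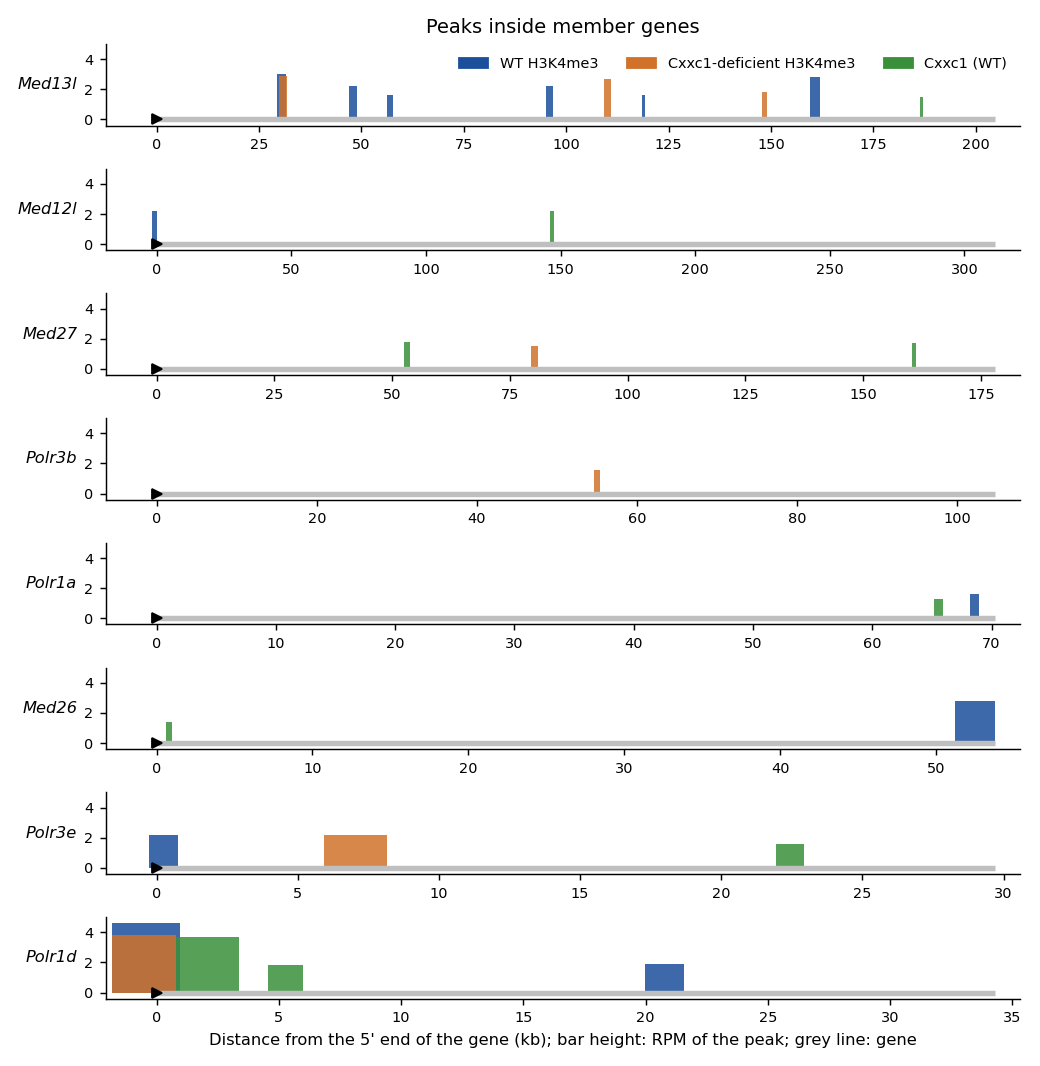
Peaks inside 8 member genes, with distance from the 5′ end in kb on the horizontal axis and the summed RPM of each peak as bar height. Blue is WT H3K4me3, orange Cxxc1-deficient H3K4me3, green Cxxc1 and the grey line the gene; orange and blue overlap at the 5′ end of Polr1d and near 30.57 kb in Med13l.

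Away from promoters, WT H3K4me3 windows were listed in the gene body of 19 of the 56 gene models (33.9%, 22.9 to 47.0%), beside 21.4% of all genes. For the proteasome the share was 17.1% and for the mitochondrial ribosome 13.0%. Both sets have a shorter median gene length than the members, and its part in the shares was not tested. In Med11, the longer Med20 model, Med30, Polr2d, Polr2e, Polr2i, Polr3a and Polr3f these were only the last windows of a peak over the 5′ end. In Polr2f they belonged to a peak centred beyond the 3′ end of the gene. Peaks with their midpoint in the body numbered 16 in WT cells, 6 in Cxxc1-deficient cells and 8 for Cxxc1. Of the 16, 1 overlapped a Cxxc1-deficient peak (6.25%) and 0 overlapped a Cxxc1 peak. Over the 5634 WT body peaks of all autosomal genes, 5.8% overlapped a Cxxc1-deficient peak and 2.09% a Cxxc1 peak, so the member counts were near the general rate. In Cxxc1-deficient cells 5 gene bodies had listed windows (8.93%, 3.87 to 19.3%), beside 5.89% of all genes.

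Med13l, a kinase module paralogue of Med13 that spans 204.7 kb, had 6 WT and 3 Cxxc1-deficient body peaks and no listed promoter window. Its WT peaks held 1.6 to 3.0 RPM. The peak common to both genotypes lay in an intron, from 29473 to 31672 bp in WT cells (3.0 RPM) and from 29873 to 31872 bp in Cxxc1-deficient cells (2.9 RPM). The other Cxxc1-deficient peaks of Med13l, of 2.7 and 1.8 RPM, overlapped no WT peak. Listed in Cxxc1-deficient cells and not in WT cells were also the intronic peaks of Med27 (1.5 RPM), Polr3b (1.6 RPM) and Polr3e (2.2 RPM). In WT cells, Med24 had 2 body peaks of 1.7 and 2.0 RPM, Med26 had 1 of 2.8 RPM at its 3′ end, and Polr2a had 1 of 1.8 RPM at its 3′ end, beside single body peaks in Med9, Med10, Polr1a, Polr1d, Polr2c and Polr3gl.

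Of the 30 gene models without a WT promoter window, 13 had WT windows in the body or the 10 kb upstream (43.3%, 27.4 to 60.8%), beside 16.1% of all such genes. The 13 include the longer Med20 model, whose windows lay partly in the peak over its own 5′ end. Several windows of the 13 sat at the start of a neighbouring gene. The peak upstream of Polr1e was at Zbtb5 (4.9 RPM), that of Polr2g at Zbtb3 (3.7 RPM) and that of Polr3gl at Ankrd34a (3.3 RPM). That of Med25 was at Ap2a1 (5.2 RPM) and that of Med16 at Kiss1r (4.4 RPM). Polr2l had a peak of 4.4 RPM in its upstream region without another TSS within 1 kb. These values are sums over whole peaks, which can reach beyond the 10 kb, as that of Med25 did. Each was above 2.65 RPM, the median whole-peak value of the listed member promoters.

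Other genes of the same pathway had a similar share in WT cells. Of 86 gene models of initiation, elongation and polymerase-specific factors, among them Crcp, a Pol III subunit, 42 had WT promoter windows (48.8%, 38.6 to 59.2%), 8 were listed in Cxxc1-deficient cells and 5 in both (11.9% of 42). None had a Cxxc1 window at its promoter. Over all autosomal genes the shares were 32.5% in WT cells, 6.11% in Cxxc1-deficient cells and 2.03% for Cxxc1. WT windows were listed at 6 of 18 general Pol II factors, 8 of 16 TFIID subunits, 16 of 23 pausing and elongation factors, 2 of 9 Pol I factors, 9 of 17 Pol III factors and 1 of the 3 genes for the kinases and cyclin of the Mediator kinase module (Cdk8, Cdk19 and Ccnc, of which Ccnc was listed). In Cxxc1-deficient cells the counts were 1, 1, 0, 4, 2 and 0 in the same order. The 9 Pol I factors include the 3 subunits under older symbols.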

How the data were processed

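Samples were grouped by their titles, with 1 library per group. Per the study's methods and the submitters' processing notes (CASAVA 1.8.2, SICER 1.1), 50-bp reads were mapped to mm9, unique reads were kept, and regions were called. The methods name input and the Cxxc1-deficient ChIP as controls, and the paper's results give both for the Cxxc1 regions. Which control each H3K4me3 list had is unclear from the paper. The aligner and the treatment of duplicates are not given in the sources used here. The authors deposited RPM values at 1 decimal for 200-bp windows inside called regions only. Input and the Cxxc1-deficient Cxxc1 ChIP were not analysed here.

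Windows up to 2 missing windows apart were joined into peaks. Promoters were within 1 kb of a protein-coding TSS in GENCODE vM1, whose assembly (NCBIM37) is that of mm9. Values are RPM sums. Tag numbers divide RPM by the value of 1 tag. Shares carry 95% Wilson intervals and tag numbers Poisson intervals (Python 3.11.15, pandas 2.3.3, scipy 1.17.1). Overlap meant at least 1 bp. The counts of member promoters with listed windows were checked with bedtools 2.31.1, and functions were tested on simulated data. Genes named with values were those with Cxxc1 windows, those listed in Cxxc1-deficient cells, the 5 highest and 5 lowest WT promoters, and the catalytic subunits. Others are given in their groups. Members and lists were chosen with earlier results of these data known, and the CpG classes, the divergent partners and the older symbols after the data were seen. No test was run, as each group had 1 library. The name of 1 unlisted gene and of 1 partner gene is not reported here.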

Additional observations from a re-analysis of the deposited data

How the results depend on the processing

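Of 38 alternative values for 7 results, 32 stayed within the 95% interval of the value reported and 6 did not. Counting promoter windows within 500 bp of a TSS gave a median WT promoter value of 2.05 RPM over the members, beside 1.9 RPM over all genes. With the stronger 50% of the peaks of each list, WT promoter windows were listed at 32.1% of members (21.0% of all genes). Cxxc1 windows in the body or 10 kb upstream were then listed at 7.14% of members, and WT body windows at 19.6%. For these body measures the shares over all genes at this setting are not given, so members cannot be compared with all genes. Without promoters shared with another gene, 0.0% of members were listed in Cxxc1-deficient cells, since Polr1c, Polr1d and Med8 all have partners. The share over all genes at this setting is not given. Of WT-listed members without a partner, 0.0% were listed in both genotypes, beside 11.8% over all genes without a partner. The alternatives tried were a promoter of 500 bp or 2 kb, the 5′ end alone, the stronger peaks, unshared promoters, the same window in both genotypes, other definitions of the body and the upstream region, and, added after seeing the data, 1 gene model for Med20. No paired analysis was possible because there was 1 library per group, and none could be left out. The lowest listed member promoter in WT cells held 15 tags, and signal outside called regions is unknown.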

Other observations

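Among factors that work with the polymerases, Ubtf, the upstream binding factor of ribosomal DNA, had 7.8 RPM at its promoter in WT cells and no listed window in Cxxc1-deficient cells. Rrn3, which recruits Pol I, was listed in both genotypes, at 3.3 and 1.7 RPM. Taf1d, a subunit of the Pol I selectivity factor, was listed in Cxxc1-deficient cells (1.8 RPM) and not in WT cells. Maf1, a repressor of Pol III, was listed in both genotypes, at 4.5 and 2.7 RPM, as was Gtf3c6, a TFIIIC subunit, at 1.7 and 2.7 RPM. The Pol II factors Gtf2f1 (1.7 and 2.2 RPM) and Taf11 (2.3 and 3.4 RPM) were also listed in both. In the pausing and elongation group, Ell (5.4 RPM), Cdk9 (3.8 RPM), Aff1 (3.8 RPM) and Ccnt1 (3.4 RPM), which belong to or bind the elongation kinase machinery, had the highest WT values. None of the 16 WT-listed genes of this group was listed in Cxxc1-deficient cells, beside 12.8% of all WT-listed autosomal promoters.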
